A study of Homo sapiens with 4 samples.

Results

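Aminoacyl-tRNA synthetases are the enzymes that join each amino acid to its tRNAs, the step that fixes the genetic code before the ribosome reads an mRNA. Human cells hold a cytosolic set and a mitochondrial set, both encoded in the nucleus, and most amino acids have a separate gene for each compartment. GARS1 and KARS1 make both forms from 1 gene, glutamine has no mitochondrial synthetase of its own, and EPRS1 joins the glutamyl and prolyl enzymes in 1 protein. Several cytosolic enzymes sit in a multisynthetase complex that is held together by the scaffold proteins AIMP1 and AIMP2. The genes described here were chosen by name: a symbol of the form of a letter followed by ARS, ARS1 or ARS2, or EPRS1, FARSA, FARSB, AIMP1 or AIMP2. Of the genes with such names, 36 are described, among 12838 gene symbols, namely 19 cytosolic synthetases, 15 mitochondrial synthetases and the 2 scaffolds. AIMP2 ends in a 2 as the mitochondrial genes do, but it encodes a cytosolic scaffold and was kept apart from them. SARS2 was not analysed here.

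The RNA came from LM2-4175 breast carcinoma cells, which were derived from MDA-MB-231 and selected for growth in lung. All cells carried a doxycycline-inducible construct of CerS4, a ceramide synthase, and grew with puromycin and hygromycin. The 4 libraries were the EXOSC10 immunoprecipitate of cells given 5 µg/mL doxycycline for 48 h, the EXOSC10 immunoprecipitate of untreated cells, the control IgG immunoprecipitate of doxycycline-treated cells and that of untreated cells. EXOSC10 is a nuclear 3′ to 5′ exoribonuclease of the RNA exosome, and the study's main question was which mRNAs it bound with and without doxycycline. There was 1 library per group, so a difference between single libraries has no replicate check and is given with a counting interval and no p-value.

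The libraries held 3723425 to 7575264 estimated reads, of which 56.3% to 83.8% lay on ribosomal RNA genes, leaving 1023384 to 2408292 reads on other genes. All 6 markers of the mesenchymal state of this line (VIM, CD44, CAV1, AXL, MSN and LGALS1) had entries, and limma, used as below, called 1 higher and 3 lower for EXOSC10 over IgG, where 1.37% of all genes tested were called higher and 15.9% lower. Entries were found for 3 of 5 luminal markers (not ESR1 or EPCAM), 2 of 4 fibroblast markers, 1 of 3 endothelial markers and 0 of 6 blood and immune markers. In pulled-down RNA of many cells, fewer cells with an mRNA and less of it per cell cannot be told apart. Levels are given as scaled CPM, the deposited CPM divided by a trimmed-mean (TMM) factor of the library, and ratios as log2 after 0.2 scaled CPM was added to both levels, which equals 0.53 to 2.76 reads, depending on the library. This understates the ratio of rarely read genes. Higher and lower in counts of genes mean a 2-fold or larger difference between libraries that together held 100 or more reads.

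Many cytosolic synthetase genes are known targets of ATF4, the transcription factor of the amino acid shortage response, which binds elements of the form TGATGNAA together with C/EBP proteins. At least 1 promoter (250 bases before and 50 after a gene start, RefSeq, GRCh38.p14) was at hand for 31 of the 36 genes. These genes had 43 promoters, and a gene was counted if any of its promoters held a match. The number of promoters per gene was not compared with that of other genes. TGATGNAA, read on both strands, occurred in 7 of 16 cytosolic genes (43.8%), 1 of 13 mitochondrial genes (7.69%) and 0 of 2 scaffold genes, beside 4.46% of the 27305 genes of the table and 2.82% of the 10033 genes that also had an entry here. The windows of 30 bases around the match are shown because 7 of the 8 are cytosolic; the difference between compartments was not tested. The match is in capitals, 5′ to 3′ on the strand of the gene, and a match that begins with TT is the element on the other strand.
AARS1, chr16:70289675-70289704, minus strand: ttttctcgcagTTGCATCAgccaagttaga
CARS1, chr11:3057407-3057436, minus strand: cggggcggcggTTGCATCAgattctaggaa
GARS1, chr7:30594834-30594863, plus strand: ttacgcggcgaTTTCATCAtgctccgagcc
IARS1, chr9:92293692-92293721, minus strand: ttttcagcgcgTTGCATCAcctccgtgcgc
MARS1, chr12:57488053-57488082, plus strand: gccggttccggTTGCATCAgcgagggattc
NARS1, chr18:57621804-57621833, minus strand: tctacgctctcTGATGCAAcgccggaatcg
TARS1, chr5:33440956-33440985, plus strand: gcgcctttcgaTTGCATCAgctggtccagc
YARS2, chr12:32756076-32756105, minus strand: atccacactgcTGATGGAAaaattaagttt
In MARS1 and CARS1 the match spans the annotated start, in IARS1 it lies 13 to 6 bases before it, and in AARS1 and YARS2 it lies over 100 bases upstream. A match is a description of these letters and not a bound site. In the EXOSC10 libraries, doxycycline over untreated, the 7 cytosolic genes with a match had log2 ratios of -0.89 to 0.50 (median -0.13), and the 8 cytosolic genes with 100 reads whose promoters had none had -0.84 to 0.26 (median -0.26), so the ranges overlapped over most of their width. For EXOSC10 over IgG with doxycycline the genes with a match had a median of 0.75 (-2.54 to 2.15) and those without one -0.05 (-1.95 to 0.65). Untreated the medians were 0.74 for 6 genes with a match (-1.29 to 1.96) and 0.24 for 6 without (-1.38 to 0.73). These ranges overlapped too, and the differences were not tested.

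EXOSC10 over IgG set the synthetase mRNAs apart from each other. VARS1, SARS1 and GARS1, which charge tRNAs with valine, serine and glycine, were at least 2-fold lower with EXOSC10 than with IgG in both treatments. IARS1, the isoleucine enzyme, was at least 2-fold higher untreated but not with doxycycline, where CARS1, LARS1, MARS1 and TARS1 had higher ratios. Most of the other cytosolic mRNAs lay between IARS1 and the low mRNAs. Across the 4 libraries, with treatment as covariate, limma called 4 of 33 members with enough reads at an adjusted p under 0.05. VARS1, SARS1 and GARS1 were called lower and IARS1 higher, where 15.9% of all 9594 genes tested were called lower and 1.37% higher. The count of lower members is therefore no larger a share than that of genes in general, and the treatments stand in for replicates in this test, which had 1 residual degree of freedom.

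VARS1 (chromosome 6, 31777518 to 31795752, GRCh38) had 42.1 scaled CPM in the EXOSC10 library and 152 in the IgG library with doxycycline, and 56.0 with EXOSC10 and 242 with IgG untreated. Both EXOSC10 values lay below both IgG values, on 580 and 293 reads with EXOSC10 and 522 and 643 with IgG. The log2 ratio was -1.85 with doxycycline (exact 95% counting interval -2.03 to -1.68) and -2.11 untreated (-2.32 to -1.91), and limma gave -1.98 ± 0.25 (SE) with an adjusted p of 0.00173. Among all genes compared, VARS1 stood at percentile 13.3 of 6279 with doxycycline and 6.66 of 3619 untreated. VARS1 reads were whole in all libraries.

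SARS1 (chromosome 1, 109213893 to 109238182) had 27.5 scaled CPM with EXOSC10 and 107 with IgG under doxycycline, and 49.3 with EXOSC10 and 129 with IgG untreated. The EXOSC10 libraries were again the low ones, without overlap. Among all genes compared, SARS1 stood at percentile 11.7 of 6279 with doxycycline and 25.8 of 3619 untreated. In the untreated comparison 36.1% of genes were at least 2-fold lower. Its ratios were -1.95 (-2.17 to -1.75) with doxycycline and -1.38 (-1.63 to -1.15) untreated, and limma gave -1.67 ± 0.26 (SE), adjusted p = 0.00318.

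GARS1 (chromosome 7, 30594735 to 30634033) had 26.8 scaled CPM with EXOSC10 and 157 with IgG under doxycycline, and 49.7 with EXOSC10 and 121 with IgG untreated. The doxycycline libraries lay farthest apart, and GARS1 was then the lowest of the 24 members with 100 reads, at percentile 4.43 of the 6279 genes compared, whereas untreated it stood at percentile 28.1 of 3619 genes. Its ratios were -2.54 (-2.74 to -2.35) and -1.29 (-1.53 to -1.05) in the same order of treatments, and limma gave -1.91 ± 0.33 (SE), adjusted p = 0.00418.

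The 3 negative directions hold under TMM. With CPM scaled to total reads the library factors shift the EXOSC10 over IgG ratios by 2.47 with doxycycline and 0.79 untreated, less for rarely read genes because 0.2 CPM is added after scaling, and SARS1 (0.51) and VARS1 (0.61) then turn positive with doxycycline. With total reads all 3 limma calls were lost, at -0.35 (VARS1), -0.04 (SARS1) and -0.29 (GARS1). With non-ribosomal scaling limma called only VARS1 among the members as lower, and with the largest entry of each symbol in place of the sum GARS1 lost its call at a larger ratio, -3.01.

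IARS1 (chromosome 9, 92210207 to 92293697), a member of the multisynthetase complex, had 34.6 scaled CPM with EXOSC10 and 20.5 with IgG under doxycycline, and 39.4 with EXOSC10 and 10.0 with IgG untreated. Both EXOSC10 values were above both IgG values. The ratio was 1.957 untreated (1.39 to 2.62), at percentile 99.8 of 3619 genes, and 0.75 with doxycycline (0.39 to 1.14), short of 2-fold. The limma value was 1.35 ± 0.36 (SE), adjusted p = 0.0336. IARS1 had 12 entries, the most of any member, and its reads were whole in 0 of the 4 libraries (tolerance 0.05 reads). With median-of-ratios factors and with total reads its call was lost, at 1.32 and 2.97.

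**Figure D1:**
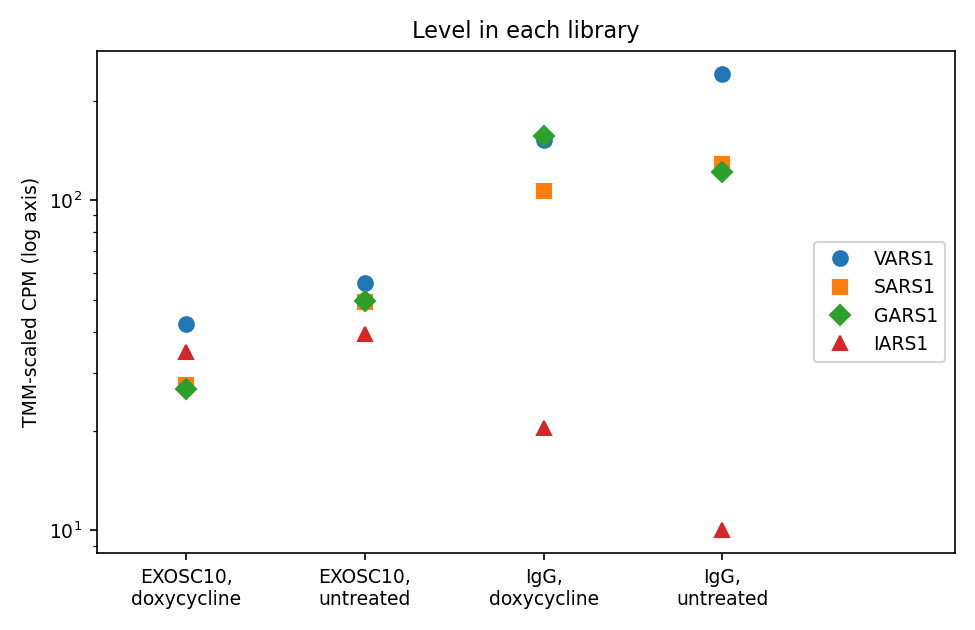
Scaled CPM (log axis) of the 4 mRNAs called by limma for EXOSC10 over IgG, in each of the 4 libraries, 1 point per gene and library. VARS1, SARS1 and GARS1 are lower in the EXOSC10 libraries at the left and IARS1 is higher. Values are not per length, so only points of the same gene can be compared.

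With doxycycline, 24 members had 100 reads, of which 3 were at least 2-fold lower (12.5%, beside 26.6% of all genes tested) and 4 at least 2-fold higher (16.7%, beside 14.0%). Untreated, 16 members had 100 reads, with 3 lower (18.8%, beside 36.1%) and 2 higher (12.5%, beside 5.36%). The share of lower members was under that of all genes in both treatments, and these shares were not tested. The median ratio of the members with 20 reads was 0.48 with doxycycline (35 members) and 0.41 untreated (32 members), beside 0.29 and 0.06 for all genes with 20 reads. At the 100 reads used for the counts, the members had medians of 0.51 with doxycycline and 0.39 untreated. All genes with 100 reads had 0.05 and -0.45, so genes with more reads lay lower for EXOSC10 over IgG. Of the 16 members with 100 reads in both treatments, 12 had the same sign in both, the 3 above were lower in both, and 0 were higher in both.

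The other members called with doxycycline were LARS1, CARS1, LARS2 and NARS2. LARS1, the cytosolic leucine enzyme, which also senses leucine for the mTORC1 pathway, had 54.9 scaled CPM with EXOSC10 and 22.2 with IgG (1.30, 0.97 to 1.67). Untreated it had 33.6 with EXOSC10 and 20.7 with IgG (0.70, 0.26 to 1.16, reads of 757, 176, 76 and 55 in the order in which the libraries were introduced), and limma gave 1.00 with an adjusted p of 0.0505, just outside the threshold. LARS2, its mitochondrial counterpart, had 12.1 with EXOSC10 and 4.67 with IgG under doxycycline (1.34, 0.63 to 2.22) and 9.93 with EXOSC10 and 6.02 with IgG untreated. CARS1, the cysteine enzyme, had 7.81 with EXOSC10 and 1.61 with IgG under doxycycline (2.15, 1.07 to 3.83), but the IgG value rested on 5.5 reads, beside 107.7 with EXOSC10, and its reads were whole in 0 libraries. Untreated it had 8.96 with EXOSC10 and 3.24 with IgG.

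NARS2, the mitochondrial asparagine enzyme, had 118.9 reads with EXOSC10 and 0 with IgG under doxycycline, at least 9.85-fold higher against a floor of 3 reads in the IgG library. Untreated it had 37 reads with EXOSC10 and 16 with IgG, or 7.07 and 6.02 scaled CPM, a ratio of 0.23, so the large difference rests on the doxycycline IgG library alone. HARS2, the mitochondrial histidine enzyme, had 61 and 13.5 reads with EXOSC10 (doxycycline and untreated) and under 1 read in each IgG library, at least 5.06-fold and 2.29-fold higher. RARS2, the mitochondrial arginine enzyme, had 28.3 and 20.5 reads with EXOSC10 and again under 1 read with IgG, at least 2.35-fold and 3.46-fold higher. HARS2 and RARS2 were under the minimum of 100 reads, and their adjusted p in limma was 0.0675 and 0.087. HARS2 and HARS1 are neighbours on chromosome 5, and HARS1 itself had 5.71 scaled CPM with EXOSC10 and 7.31 with IgG under doxycycline, a ratio of -0.35 (-1.02 to 0.35).

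Among the cytosolic members that stayed within 2-fold with doxycycline, MARS1 (the methionine enzyme, 0.90, and 1.09 untreated, where it was counted as higher), TARS1 (threonine, 0.89 and 0.52), KARS1 (lysine, 0.65 and 0.26), AARS1 (alanine, 0.50 and 0.97) and EPRS1 (0.51 and 0.22) were positive in both treatments. MARS1 overlaps DDIT3 on chromosome 12, and the 2 genes summed were at 1.13 with doxycycline and 1.13 untreated. NARS1, the asparagine enzyme, was at 0.62 with doxycycline and -0.14 untreated. FARSA, the alpha subunit of the phenylalanine enzyme, was at -0.14 with doxycycline and 0.73 untreated, and QARS1, the glutamine enzyme, at -0.29 and 0.72. YARS1 (tyrosine), which overlaps S100PBP, was at 0.29 and 0.74 (0.51 and 1.02 for the 2 genes summed) and WARS1 (tryptophan) at 0.48 and 0.09. In the EXOSC10 libraries EPRS1 had 715 reads with doxycycline and 268 untreated, KARS1 438 and 139, FARSA 350 and 141, QARS1 282 and 114.3, YARS1 316 and 132, and WARS1 134.5 and 69. MARS1 had 29.5 scaled CPM with EXOSC10 and 15.7 with IgG under doxycycline, and 32.3 with EXOSC10 and 15.04 with IgG untreated. RARS1 (arginine) had 96 reads with doxycycline, with EXOSC10 and IgG together, and 48 untreated, too few for a call.

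Grouped by fold of the catalytic domain, class I cytosolic members with 100 reads had a median EXOSC10 over IgG ratio of 0.61 with doxycycline (8 members) and 0.72 untreated (7 members), and class II members 0.04 (9 members) and 0.26 (7 members). VARS1 is of class I while SARS1 and GARS1 are of class II, so the class II medians include 2 of the 3 low mRNAs. The multisynthetase complex had medians of 0.70 and 0.71 (6 members each time) and the cytosolic synthetases outside it 0.16 (12 members) and 0.09 (9 members). All 3 low mRNAs are outside the complex, so the medians outside it include them and those of the complex do not. Members share libraries and are not replicates, so these medians carry no test.

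**Figure D2:**
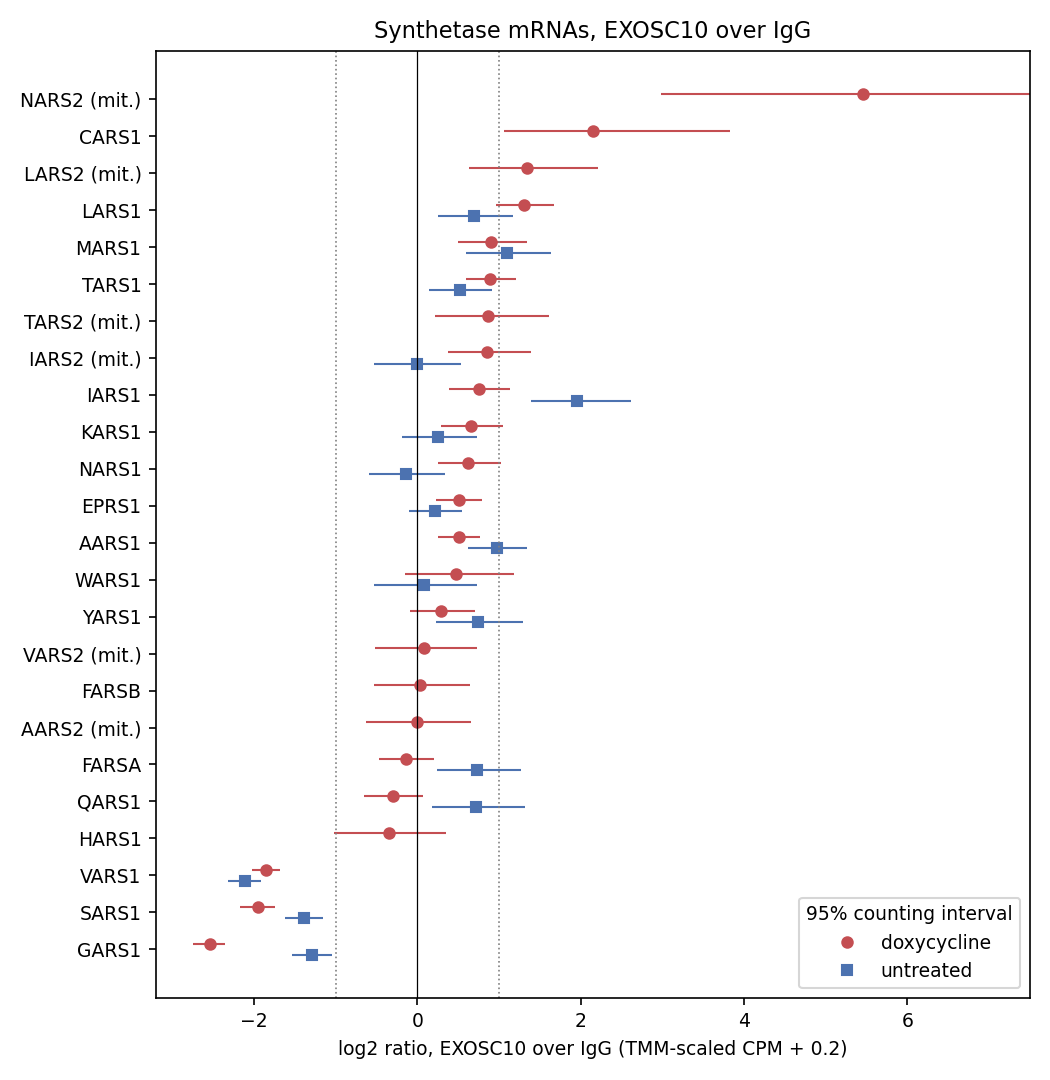
log2 ratio of EXOSC10 over IgG with its 95% counting interval for the 24 members with at least 100 reads under doxycycline (circles), and untreated where 100 reads were reached (squares). "mit." marks mitochondrial synthetases, and dotted lines mark 2-fold. GARS1, SARS1 and VARS1 stand below all others in both treatments, and the interval of NARS2 has no upper end because its IgG library had 0 reads.

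Shares of reads within a library use no TMM factor. The 36 genes held 0.375% of the non-ribosomal reads of the EXOSC10 library and 0.218% of those of the IgG library with doxycycline, and 0.342% with EXOSC10 and 0.209% with IgG untreated. The exact Clopper-Pearson 95% intervals were 0.367 to 0.383 (EXOSC10) and 0.210 to 0.227 (IgG) with doxycycline, and 0.331 to 0.354 (EXOSC10) and 0.201 to 0.218 (IgG) untreated, so the antibodies did not overlap. Such a share amounts to scaling to non-ribosomal reads. Compared with TMM, that scaling shifts the library factors of EXOSC10 over IgG up by 1.04 with doxycycline and 1.02 untreated, for all genes. A larger share with EXOSC10 is therefore not by itself an enrichment of these genes. VARS1, SARS1 and GARS1, pooled because they were low above, made up 17.4% of the cytosolic synthetase reads with EXOSC10 (16.6 to 18.3) and 57.3% with IgG (55.3 to 59.3) under doxycycline. Untreated they made up 26.5% with EXOSC10 (24.99 to 28.2) and 64.96% with IgG (62.8 to 67.0). This restates their ratios on a scale free of library factors and is no independent support.

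The mitochondrial genes held 14.4% of all synthetase reads with EXOSC10 (13.7 to 15.2) and 6.75% with IgG (5.83 to 7.77) under doxycycline, and 11.8% with EXOSC10 (10.8 to 12.95) and 8.16% with IgG (7.05 to 9.38) untreated. GARS1 and KARS1, which make both forms, were counted as cytosolic here and wherever compartments are compared, and the shares depend on that choice. Without the 3 low cytosolic mRNAs, a choice made with their values known, the shares were 16.9% with EXOSC10 (16.1 to 17.8) and 14.5% with IgG (12.6 to 16.6) under doxycycline, and 15.4% with EXOSC10 (14.1 to 16.9) and 20.2% with IgG (17.6 to 23.0) untreated. Without them the untreated mitochondrial share was lower with EXOSC10 than with IgG, and the intervals under doxycycline overlapped.

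**Figure D3:**
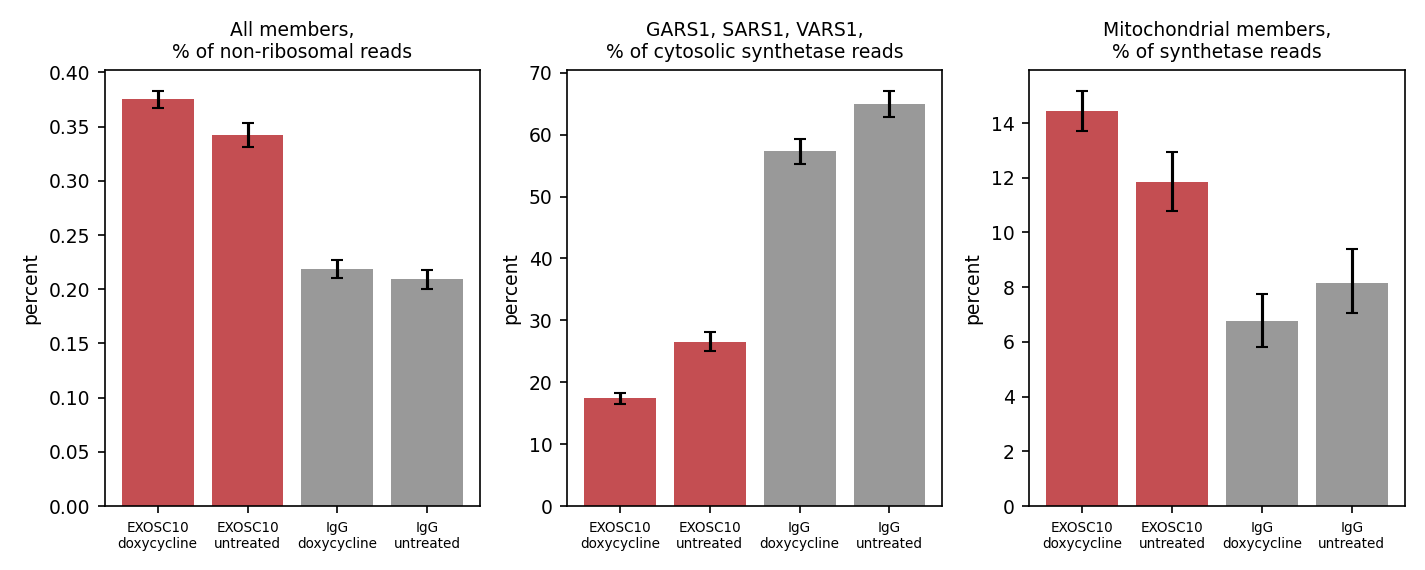
Percent of reads in each library, with exact 95% binomial intervals, held by all 36 genes among non-ribosomal reads (left), by the 3 low mRNAs among cytosolic synthetase reads (middle) and by mitochondrial genes among synthetase reads (right). Red bars are EXOSC10 and grey bars IgG, and the 3 low mRNAs take 17.4% and 26.5% of cytosolic reads with EXOSC10 against 57.3% and 64.96% with IgG (doxycycline and untreated).

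For the study's primary comparison, EXOSC10 with doxycycline over EXOSC10 untreated, 0 of the 24 members with 100 reads were 2-fold higher and 0 were 2-fold lower, where 6.06% of all 6584 genes were higher and 3.98% lower. The members ranged from -0.89 (GARS1) to 0.70 (LARS1), and their median was -0.09, beside -0.04 for all genes with 100 reads. The intervals of 16 members included 0, those of 4 lay above it and those of 4 below. The additive limma test of doxycycline over all 4 libraries called 0 of 33 members, with 0 at an unadjusted p under 0.05, and called 0 of 9594 genes, with 203 higher and 241 lower at an unadjusted p under 0.05.

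GARS1 was lowest, with 26.8 scaled CPM under doxycycline and 49.7 untreated (-0.89, -1.12 to -0.66), followed by SARS1 with 27.5 under doxycycline and 49.3 untreated (-0.84, -1.07 to -0.61). They stood at percentiles 6.17 and 7.17 of all genes compared. FARSB, the beta subunit of the phenylalanine enzyme, had 9.43 under doxycycline and 14.1 untreated (-0.57, -1.01 to -0.15), and VARS1 42.1 and 56.0 in the same order (-0.41, -0.62 to -0.20). The alpha subunit FARSA was at -0.08 (-0.37 to 0.21), so the 2 subunits of 1 enzyme had overlapping intervals.

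On the other side, LARS1 had 54.9 scaled CPM under doxycycline and 33.6 untreated (0.70, 0.47 to 0.95), at percentile 88.1. TARS2, the mitochondrial threonine enzyme, had 11.2 under doxycycline and 7.26 untreated (0.62, 0.11 to 1.18). NARS1 had 30.1 under doxycycline and 21.2 untreated (0.50, 0.20 to 0.82), and TARS1 53.9 and 41.4 in the same order (0.38, 0.16 to 0.61). CARS1 (-0.19), QARS1 (-0.09), MARS1 (-0.13), YARS1 (-0.14), RARS1 (-0.52), WARS1 (-0.43) and KARS1 (0.26) had intervals that included 0. AARS1 (0.07) and EPRS1 (0.02), among the members with the most reads, were within 0.26 of equality at either end of their intervals. Scaling to total reads shifts the library factors here by 1.02, more than the size of the GARS1 and SARS1 ratios, and 11 members were then 2-fold higher, while scaling to non-ribosomal reads shifts them by 0.16. Such a shift applies to all genes, and their share past 2-fold with total reads is not given, so the count says nothing particular to the members.

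The same comparison in the IgG pair gives the background of the control antibody. With IgG, doxycycline over untreated, GARS1 had 157 scaled CPM under doxycycline and 121 untreated (0.37, 0.16 to 0.57), SARS1 107 and 129 (-0.27, -0.49 to -0.06) and VARS1 152 and 242 (-0.67, -0.84 to -0.50). QARS1 (0.92, 0.35 to 1.54), FARSA (0.78, 0.26 to 1.35) and AARS1 (0.53, 0.14 to 0.94) were highest among the 12 members with 100 reads, and 0 of the 12 were 2-fold higher or lower, where 2.97% of 3027 genes were higher and 3.44% lower. NARS2 had 0 reads under doxycycline and 16 untreated, at least 6.88-fold lower, below the minimum of reads.

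The change of the EXOSC10 over IgG ratio with doxycycline, which uses all 4 libraries, was -1.25 for GARS1 (-1.56 to -0.95) and -1.02 for QARS1 (-1.66 to -0.37). These were the 2 members at least 2-fold lower among 12 with 100 reads in each antibody's pair, where 10.9% of 2946 genes were lower, and 0 were 2-fold higher, where 4.75% of genes were. FARSA was at -0.87 (-1.46 to -0.28) and SARS1 at -0.56 (-0.88 to -0.25). NARS1, at 0.75 (0.17 to 1.34), and LARS1, at 0.61 (0.05 to 1.16), lay highest. The median of the 12 was -0.09, beside -0.14 for all genes. QARS1 had 20.5 scaled CPM under doxycycline and 21.8 untreated with EXOSC10, and 25.1 and 13.1 with IgG, so its IgG libraries lay farther apart than its EXOSC10 libraries.

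**Figure D4:**
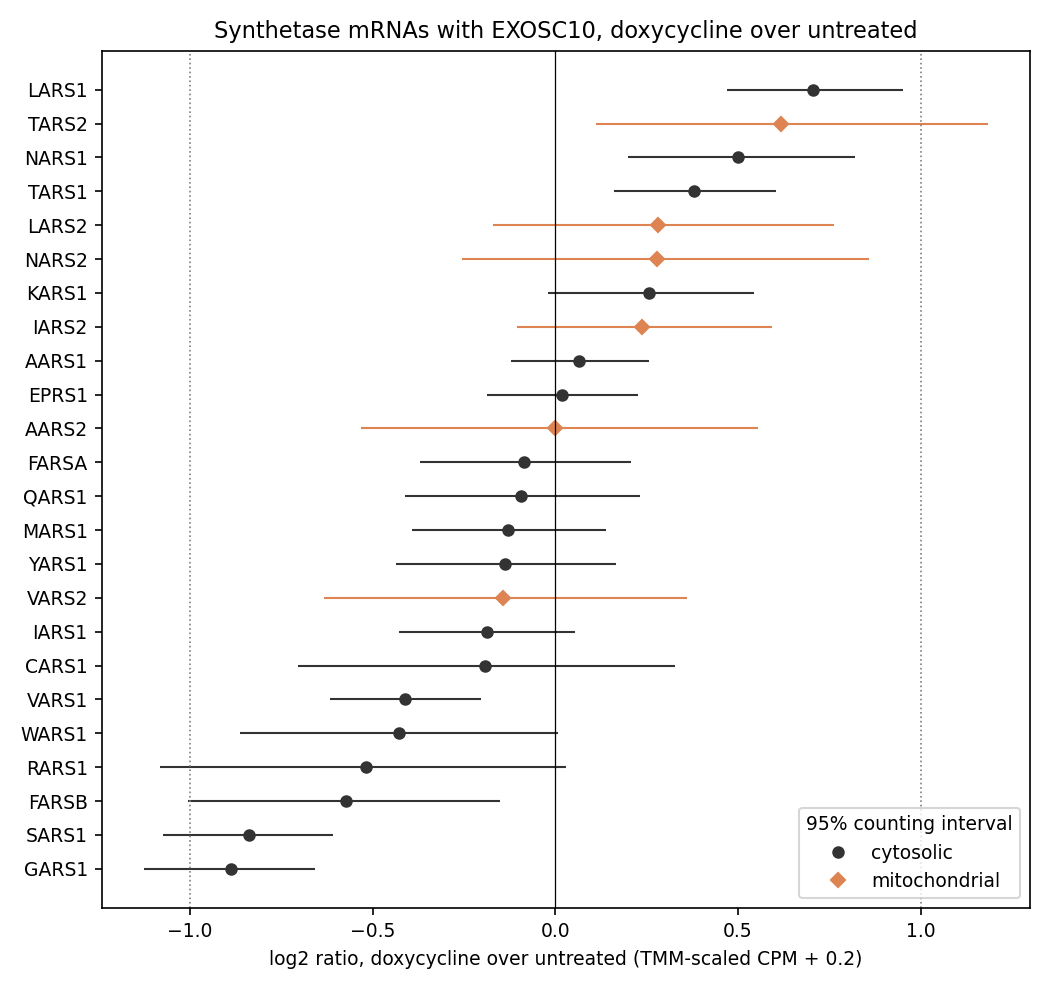
log2 ratio of doxycycline over untreated in the EXOSC10 libraries, with its 95% counting interval, for the 24 members with at least 100 reads, cytosolic (black circles) and mitochondrial (orange diamonds). Dotted lines mark 2-fold, which no point reaches. GARS1 at -0.89 and SARS1 at -0.84 are lowest and LARS1 at 0.70 is highest.

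Set by compartment, the cytosolic synthetases with 20 reads had a median of -0.13 (19 members) and the mitochondrial ones 0.28 (13 members) in the EXOSC10 pair, doxycycline over untreated, a difference of -0.41, while all genes with 20 reads were at 0.04. In the IgG pair the order was the other way round, 0.20 for 18 cytosolic and -0.19 for 8 mitochondrial members, a difference of 0.39, which was 0.079 with no minimum of reads. For EXOSC10 over IgG the medians were 0.48 and 0.48 with doxycycline (19 cytosolic and 14 mitochondrial members, a difference of -0.0054) and 0.70 and 0.20 untreated (19 and 11 members, a difference of 0.49). With total reads the difference with doxycycline was 0.11, of the other sign. The 4 comparisons share libraries, and the half-width of a member's counting interval had a median of 0.45 in the EXOSC10 pair and 0.63 to 0.64 in the others. The minimum of 20 reads is on both libraries together, and the doxycycline EXOSC10 library was the deeper of its pair. The mitochondrial MARS2, HARS2, EARS2, CARS2 and PARS2 and the cytosolic HARS1 had under 20 reads untreated and passed through that library. All of these had positive ratios in the EXOSC10 pair, so its mitochondrial median leans on genes admitted where they were high.

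Enzyme pairs for the same amino acid can be set side by side where both genes had 100 reads, which held for 6 of 16 pairs in the EXOSC10 libraries. The cytosolic enzyme had the lower doxycycline ratio in 3 pairs and the higher in 3. Reads on the mitochondrial partners were few, so the intervals are wide. IARS1 was at -0.19 (-0.43 to 0.05) and IARS2 at 0.24 (-0.10 to 0.59), LARS1 at 0.70 and LARS2 at 0.28 (-0.17 to 0.76), and NARS1 at 0.50 and NARS2 at 0.28 (-0.26 to 0.86). TARS1 was at 0.38 and TARS2 at 0.62, AARS1 at 0.07 and AARS2 at 0.00 (-0.53 to 0.56), and VARS1 at -0.41 and VARS2 at -0.14 (-0.63 to 0.36). The intervals of the partners overlapped in each of the 6 pairs. Among the mitochondrial partners, AARS2 had 7.83 scaled CPM in both EXOSC10 libraries, against 7.87 and 7.15 with IgG. IARS2 had 20.7 and 17.6 with EXOSC10 (doxycycline and untreated) and 11.4 and 17.7 with IgG, and TARS2 11.2 and 7.26 with EXOSC10 and 6.10 and 6.02 with IgG. Of the cytosolic partners not yet given with IgG, AARS1 had 63.4 and 60.6 with EXOSC10 and 44.6 and 30.8 with IgG, NARS1 had 19.5 and 23.3 with IgG, and TARS1 29.0 and 28.9.

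For EXOSC10 over IgG with doxycycline, the valine and asparagine pairs had partners with separate intervals: VARS1 at -1.85 and VARS2 at 0.08 (-0.52 to 0.73), and NARS1 at 0.62 (0.25 to 1.02), below NARS2, whose IgG library had 0 reads. The leucine (1.30 and 1.34), threonine (0.89 and 0.86) and isoleucine (0.75 and 0.86) partners lay close together. VARS2 had 8.63 and 9.55 scaled CPM with EXOSC10 (doxycycline and untreated) and 8.17 and 8.27 with IgG, almost level in all libraries, unlike VARS1.

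The remaining mitochondrial members were rarely read. RARS2 was at -0.86 in the EXOSC10 pair (-1.80 to -0.03) on 48.8 reads and HARS2 at 0.73 (-0.09 to 1.75) on 74.5. MARS2 (methionine) had 65 reads under doxycycline and 12 untreated with EXOSC10 (0.98, 0.14 to 2.06), and 12 and 9 with IgG. YARS2 (tyrosine) had 42 and 21 reads with EXOSC10 (-0.38, -1.19 to 0.43), CARS2 (cysteine) 34.2 and 12 (0.10) and EARS2 (glutamate) 43.6 and 13 (0.33), all short of 100. PARS2 (proline) had 32 and 6 reads with EXOSC10 and 6 and 0 with IgG. FARS2 (phenylalanine) reached 17.1 reads and WARS2 (tryptophan) 10.2 in the doxycycline EXOSC10 library, and no more than 3 in each of the other libraries, too few to show a difference at this depth. CARS2, EARS2, FARS2 and WARS2 overlap other genes with entries, and CARS2 summed with ING1 was at -1.28 for EXOSC10 over IgG with doxycycline against -0.22 alone. In the EXOSC10 pair, CARS2 with ING1 (-0.14), EARS2 with GGA2 (-0.54), FARS2 with LYRM4 (-0.29) and WARS2 with WARS2-AS1 (-0.31) were negative as sums, while the ratios of CARS2, EARS2, FARS2 and WARS2 alone were positive.

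The scaffolds had few reads as well. AIMP1 had 40 reads under doxycycline and 18 untreated with EXOSC10 (-0.23, -1.08 to 0.65), and 13 and 4 with IgG. AIMP1 overlaps TBCK, and the sum of both genes was at 0.22 in the EXOSC10 pair. AIMP2 had 71 and 17.6 with EXOSC10 (0.59, -0.15 to 1.46) and 3.8 and 5.8 with IgG. AIMP2 overlaps EIF2AK1, and the sum of both genes was at -0.02 in the EXOSC10 pair. HARS1 had 78.8 and 18.9 reads with EXOSC10 (0.63, -0.08 to 1.47).

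Of the 36 genes, 17 were listed under several entries, between which the authors' processing had divided the reads, and 19 under 1. The division differed between libraries for some of them, while all values above are sums over entries. Entry 1 of GARS1 held 79.0% of the gene's reads in the doxycycline EXOSC10 library, against 5.77% in that of untreated cells, and 5.75% (doxycycline) and 5.76% (untreated) with IgG. Taken alone, this entry had a doxycycline over untreated ratio of 2.80 with EXOSC10 and the other entry one of -3.01, where the gene as a whole was at -0.89.

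LARS2 behaved likewise, with 76.8% of its reads on entry 1 in the doxycycline EXOSC10 library and 33.7% in the untreated EXOSC10 library, against 33.8% in both IgG libraries. TARS1 had 41.0% of its reads on entry 2 in the doxycycline EXOSC10 library, 0.737% in that of untreated cells, and 0.503% (doxycycline) and 22.0% (untreated) with IgG. Of the 17 genes, 6 had the same largest entry in all 4 libraries, 10 in the 2 doxycycline libraries and 10 in the 2 EXOSC10 libraries. The entries are not tied to transcript identifiers in the table, so no isoform can be named.

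**Figure D5:**
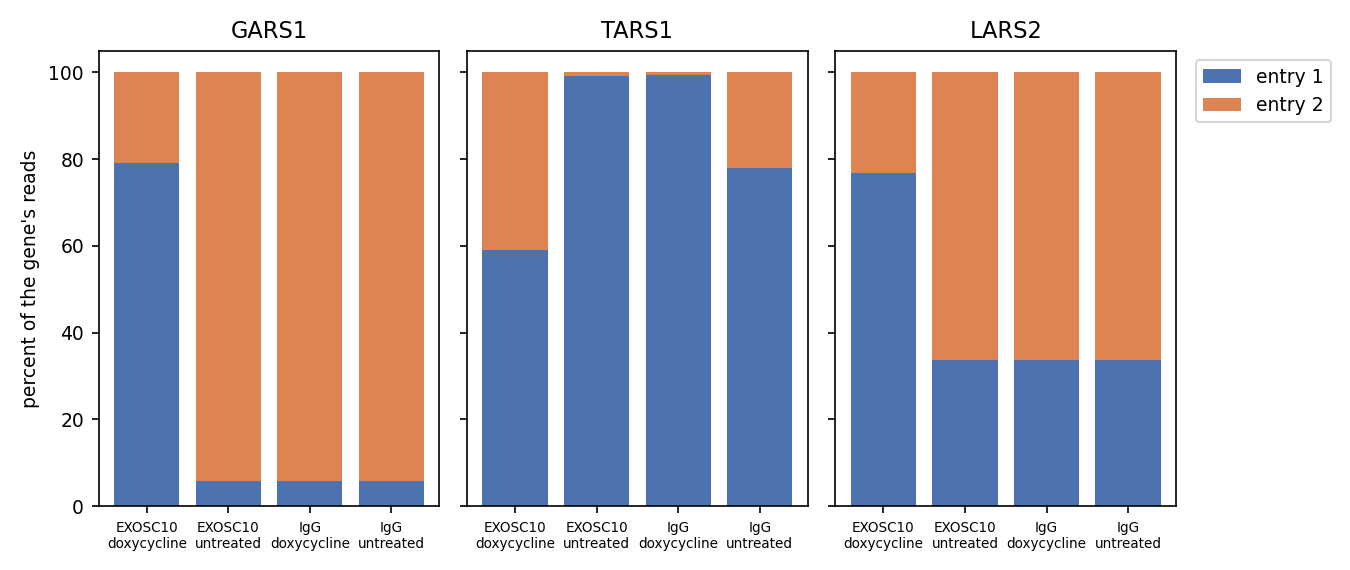
Percent of a gene's reads on each of its 2 entries in the 4 libraries, for GARS1, TARS1 and LARS2. GARS1 has 79.0% on entry 1 in the doxycycline EXOSC10 library and under 6% in the other libraries, and LARS2 has 76.8% on entry 1 there and 33.7% to 33.8% in the others. In HARS1 and VARS2, not shown, a different library stood apart.

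Lists of genes around the synthetases were described by the same count. Of 13 charging partners with entries, 5 had 100 reads in the EXOSC10 pair, and 0 were 2-fold higher or lower with doxycycline (median -0.12). EEF1A1, the elongation factor that carries charged tRNAs to the ribosome, was at -0.61 (-0.64 to -0.58), TUFM, its mitochondrial counterpart, at -0.20, PTRH2, a peptidyl-tRNA hydrolase, at 0.23 and GATC, a subunit of the mitochondrial amidotransferase that makes glutaminyl-tRNA, at 0.21. EEF1A1 was also low for EXOSC10 over IgG, at -2.38 with doxycycline and -1.92 untreated, while TUFM was at 0.77 and 0.64.

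Of 49 genes of tRNA processing and modification with entries, 24 had 100 reads in the EXOSC10 pair, with 3 higher, 2 lower and a median of 0.17, where 6.06% of all genes were higher and 3.98% lower. The 3 higher were CDK5RAP1, a methylthiotransferase (99 reads under doxycycline and 10.2 untreated, 1.78, 0.95 to 2.97), TRNT1, which adds the CCA end that synthetases charge (162.9 and 19.9 reads, 1.59, 0.96 to 2.39), and PRORP, the nuclease of mitochondrial RNase P (140 and 20.7 reads, 1.32, 0.69 to 2.11). These 3 genes passed the minimum of 100 reads mainly through the deeper doxycycline library, in which they were high. QTRT1, a subunit of the queuine transferase, was at -1.16 (-1.79 to -0.61). With IgG, doxycycline over untreated, TRNT1 had 10.4 reads and 0.5, and CDK5RAP1 0 and 5.5.

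Of 23 genes of the amino acid response with entries, 20 had 100 reads in the EXOSC10 pair, with 1 higher (PHGDH of serine synthesis, 128 reads under doxycycline and 15 untreated), 0 lower and a median of 0.15, beside the same 6.06% and 3.98% of all genes. PHGDH too passed the minimum mainly through the doxycycline library. SLC7A11, the cystine transporter subunit, was at 0.69 (0.03 to 1.45), SHMT2, the mitochondrial serine hydroxymethyltransferase, was at -0.66 (-0.94 to -0.39), and CEBPB, a partner of ATF4, at -0.98 with EXOSC10 and -0.96 with IgG. Of 9 mitochondrial translation factors with entries, 5 had 100 reads, with 0 higher and 1 lower, the elongation factor GFM1 (-1.11, -1.73 to -0.56), and a median of -0.20; MRRF, the ribosome recycling factor, was at 0.53 and GFM2 at -0.29. For EXOSC10 over IgG, limma called 0 of 11 charging partners (3 higher and 1 lower at an unadjusted p under 0.05) and 0 of 8 mitochondrial factors (2 higher and 0 lower). At an unadjusted p under 0.05, 933 of all 9594 genes tested were higher and 2052 lower. At an adjusted p under 0.05, limma called 1 higher and 2 lower of 40 genes of tRNA processing. Of 21 genes of the amino acid response it called 0 higher and 2 lower, where 1.37% of all genes were called higher and 15.9% lower.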

How the data were processed

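RNA from 4 immunoprecipitates was sequenced after SMARTer library preparation, per the labels' protocols. The authors deposited CPM, with 0.0001 added to every entry, read as such from the values because each column has the same total apart from that constant. STAR, Partek and build hg38 are named per the submitters' processing notes, while no source names the counting rule or strand setting. Entries of a symbol were summed (24015 entries). Reads were estimated as CPM divided by the value of 1 read (0.132 to 0.269 CPM); 66.3% to 73.7% of genes were within 0.05 of a whole read, so no count model was used. TMM factors (trimming 30% of ratios and 5% of levels at each end) ran from 0.453 to 2.50. Intervals are exact Clopper-Pearson intervals on estimated reads (95%), from reciprocal reads for the change of enrichment, and cover counting error only. limma 3.58.1 (R 4.3.3, mean-variance trend, Benjamini-Hochberg at 0.05) used log2(scaled CPM + 0.2) of genes with 10 reads in 2 libraries. Nothing in the labels says that libraries came from separate cultures, so its p-values measure only the spread between these libraries. The variance of each gene in them is moderated toward the trend over all genes, so it is not that gene's own spread alone. Ratio counts and limma were tested on simulated data. Members, lists, and the rule for naming genes (every member with its reads; values in each library for members called or in a pair with 100 reads; up to 4 per list by size of the EXOSC10 doxycycline ratio) were chosen with earlier results of these data known. The change of enrichment was added after the data were seen. Python 3.11.15 was used. Symbols and coordinates are from RefSeq GRCh38.p14, where all 36 matched. Some genes whose names fit the rule are not reported here and are in no count or summary of members, but they stay in the library factors, in the fits and in the values of all genes.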

Additional observations from a re-analysis of the deposited data

How the results depend on the processing

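With 1 library per group, leaving out a library would remove a group from a ratio and the residual degree of freedom from limma. The fit of EXOSC10 over IgG paired the libraries by treatment, and without treatment as covariate (no replicate block) it called 2 members higher for EXOSC10 over IgG in place of 1. Depth limits the mitochondrial genes and the scaffolds, of which 6 of 15 and 0 of 2 had 100 reads in the EXOSC10 pair, against 18 of 19 cytosolic genes. Scaled to total reads, 11 members were higher in the EXOSC10 pair, 21 higher and 0 lower for EXOSC10 over IgG with doxycycline, 10 higher and 1 lower untreated, 1 lower in the IgG pair, 9 higher and 0 lower for the change of enrichment, and 3 higher and 0 lower in limma; SARS1 (0.51) and VARS1 (0.61) then reversed with doxycycline. Scaled to non-ribosomal reads, the counts were 18 higher and 1 lower with doxycycline, 11 and 1 untreated, 1 higher in the IgG pair, 1 lower for the change, and 22 higher and 1 lower in limma. A change of scaling moves the ratios of all genes. The share of all genes called is given for the main setting only, so counts under other settings are not results about the members. With median-of-ratios factors limma called 0 higher, and with 1 CPM added it called 6 higher, the change then giving 1 lower. With no minimum of reads the counts were 2 higher in the EXOSC10 pair, 6 higher and 1 lower in the IgG pair, 8 higher with doxycycline, 10 higher untreated, 4 higher and 8 lower for the change, and 5 higher in limma. A minimum of 500 reads left 1 higher with doxycycline, 0 higher untreated and 1 lower for the change. Using the largest entry of each symbol gave 2 higher and 1 lower in the EXOSC10 pair. The cytosolic minus mitochondrial difference for EXOSC10 over IgG with doxycycline (-0.0054) had no stable sign: it was 0.11 with total reads, 0.044 with non-ribosomal reads, 0.058 with 1 CPM, 0.0090 with the largest entry, -0.011 with median-of-ratios factors and -0.056 with no minimum of reads. That of the IgG pair (0.39) was 0.079 with no minimum of reads. The cause was not tested for any of these, beyond the shift of the library factors under each scaling. The 500-read minimum left no mitochondrial member and so no compartment difference.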
